A study of Glycine max with 6 samples.

Results

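The genes of lignin and general phenylpropanoid metabolism were examined in soybean roots grown at 2 pH values. A gene was a member when the description that the authors' annotation gave it (its best match in the NCBI Nr protein database) held any of 11 words for the enzymes of this pathway, from phenylalanine ammonia-lyase (PAL) to laccase and dirigent protein. The cinnamate 4-hydroxylase gene Glyma.20G114200, which the study names among its acid-responsive genes, was added by identifier because its description reads cytochrome P450 CYP73A100-like. These rules gave 153 members among the 48667 genes listed in at least 1 library. Of the members, 148 carry Glyma identifiers and 5 are genes predicted by the authors. They fell into 12 classes, the largest being laccases with 45 genes, dirigent proteins with 28 genes and 4-coumarate--CoA ligase-like (4CL-like) proteins with 16 genes.

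The study compared roots of hydroponically grown soybean at pH 5.8 (control) with acid-treated roots at pH 4.2. After 30 days the whole root was harvested, and each of the 3 replicates per pH was 1 library from the pooled roots of 2 plants. The sample titles carry the name YC03-3 for every library, while the study's methods name the genotype Huachun 6, and the labels give no difference between the groups other than pH. Because whole roots were used, fewer cells of a type and less RNA per cell cannot be told apart in any value given here.

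Phenylpropanoid metabolism starts from phenylalanine. PAL removes its amino group, cinnamate 4-hydroxylase (C4H) adds a hydroxyl group to the resulting cinnamic acid, and 4-coumarate--CoA ligase (4CL) activates the product as a CoA ester. From this ester 1 branch leads through chalcone to flavonoids, isoflavonoids and the soybean phytoalexins called glyceollins, and the other leads through the monolignols to lignin, the phenolic polymer of xylem walls and of the Casparian strip of the root endodermis. Laccases oxidise monolignols in the wall before they couple into lignin, and dirigent proteins steer the coupling of such radicals, in Arabidopsis also at the Casparian strip.

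The libraries held between 9137226 and 9358750 expected counts, so that 3 counts corresponded to between 0.321 and 0.328 CPM (counts scaled to a common library size, here after TMM scaling). Replicates of a group differed by more than sampling noise, with a chi-square per degree of freedom of at least 7.51 in every within-group pair, and all 6 were kept as separate samples. The controls stood apart from each other. The first principal component of all tested genes carried 42.9% of the variance. On it control replicate 2 lay at -11.5, nearer to acid replicate 1 at -23.1 than to control replicates 1 and 3 at 60.1 and 103.2. On the second component, with 22.2% of the variance, control replicate 2 and acid replicate 1 were the opposite extremes, at -77.4 and 70.8. Control replicates 1 and 3 lay between them there, at 0.1 and 4.3. Genes of photosynthesis (37 chlorophyll a-b binding and Rubisco small subunit genes), defining markers of leaves, were present in these root libraries at a summed level of 1295 to 2354 FPKM (the fragment level scaled to gene length and library size), and the groups overlapped. An endodermis list was taken from genes described as Casparian strip membrane proteins or as the related CASP-like 1 proteins. Not every CASP-like gene need be particular to the endodermis. The list had a summed level of 58.1 to 174 FPKM. Control replicates 1 and 3 lay below all acid-treated libraries while control replicate 2 lay above them.

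Of the 153 members, 113 had enough counts to be tested, and 109 had a mean level of at least 1 FPKM over the 6 libraries. The 40 untested members were mostly near 0, with 38 below 1 FPKM. Only 2 tested members met the limits for a differentially expressed gene (DEG), an adjusted p under 0.05 in edgeR's quasi-likelihood test and at least a 2-fold change. The C4H gene Glyma.20G114200 was up-regulated at pH 4.2 and the laccase-4-like gene Glyma.14G062300 was down-regulated. One up-regulated gene among 113 is 0.885% of the members, where 0.227% of all 33490 genes tested were up-regulated, and 1 down-regulated gene is also 0.885%, where 0.331% of all genes were down-regulated. With DESeq2, the tool of the study, 5 of 128 members with an adjusted p were up-regulated, 3.91% against 1.22% of all genes, and 5 were down-regulated, 3.91% against 1.55%.

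Without adjustment, 9 tested members were higher at pH 4.2 with p under 0.05, which is 7.96% against 4.21% of all genes tested, and 20 were lower, which is 17.7% against 7.61%. The 3 acid-treated libraries lay wholly above the 3 controls for 9 members (7.96%, all genes 7.17%) and wholly below them for 12 members (10.6%, all genes 9.23%). The median log2 fold change of the 113 members was -0.10, beside 0.00 over all genes, with 47 members above 0 and 66 below. It turned to 0.10 without control replicate 2 and was -0.34 without control replicate 1, -0.25 without acid replicate 1 and between -0.06 and -0.04 without any of the other libraries.

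**Figure D1:**
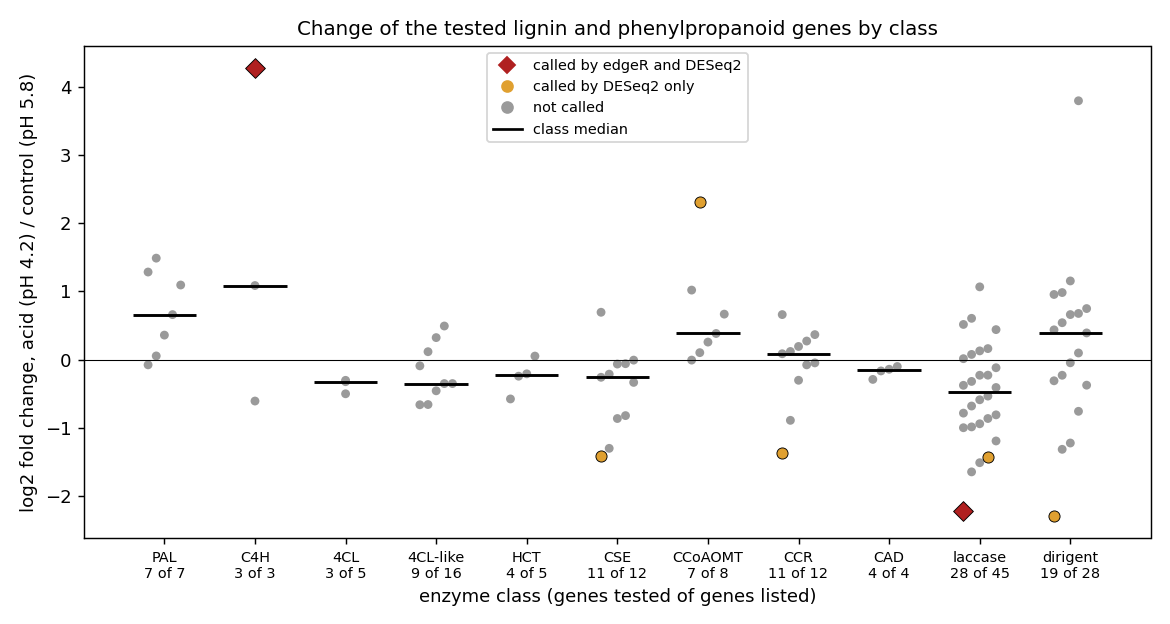
Each point is 1 tested member of the classes described, placed by its log2 fold change (acid-treated over control, edgeR) in its enzyme class, with a line at the class median and the number of tested and listed genes under the class name. PAL, C4H, CCoAOMT and dirigent genes have medians between 0.38 and 1.09, laccase genes have a median of -0.47, and the 2 diamonds are the genes called by both edgeR and DESeq2, at 4.27 and -2.22.

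At the entry of the pathway, most PAL genes had log2 fold changes above 0 but none was a DEG. Of the 7 PAL genes, all tested, 6 had a log2 fold change above 0 and the median was 0.66. The most abundant, PAL class 2 Glyma.13G145000, gave 50.1% of the class level in FPKM on average. It stood at 86.2, 120 and 127 CPM in the controls and at 203, 113 and 111 CPM in the acid-treated roots. Acid replicate 1 was the highest library and the other acid-treated libraries lay among the controls (log2 fold change 0.36, SE 0.31, edgeR adjusted p = 0.71). PAL class 3 Glyma.02G309300, a gene of low level, stood at 2.59, 2.67 and 2.59 CPM in the controls and at 13.4, 4.86 and 3.88 CPM in acid-treated roots. All 3 acid-treated libraries lay above the nearly identical controls, and acid replicate 1 was again far above the other acid-treated libraries, so that the log2 fold change of 1.49 (SE 0.48) had an edgeR adjusted p of 0.258. Acid replicate 1 was the highest of the 6 libraries for 5 of the 7 PAL genes. Without that library the median log2 fold change of the class was 0.02, and without control replicate 1 it was 0.46.

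The 3 C4H genes, which encode the second enzyme of the pathway, differed in level and in the sign of their fold change. Glyma.20G114200 stood at 4.64, 4.49 and 1.86 CPM in the controls and at 110, 51.6 and 51.8 CPM in acid-treated roots. Every acid-treated library lay far above every control, and acid replicate 1 was the highest. The mean was 3.67 ± 1.56 CPM (SD, n = 3) in controls and 71.1 ± 33.6 CPM (SD, n = 3) in acid-treated roots, a 19.4-fold difference in the edgeR fit (log2 fold change 4.27, SE 0.45, edgeR adjusted p = 0.00953; DESeq2 adjusted p = 5.26e-20). Without each library in turn the log2 fold change ranged from 3.82 to 4.48, and the edgeR adjusted p rose above 0.05 only without acid replicate 2, to 0.0593. The study picked this gene from these libraries, so its direction here is not independent evidence.

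The main C4H gene had a fold change of the opposite sign, which did not pass the test. Glyma.02G236500 carried 74.8% of the C4H level in FPKM on average and was the most abundant C4H gene in every library. It stood at 573, 704 and 812 CPM in the controls and at 638, 382 and 352 CPM in acid-treated roots. Acid replicates 2 and 3 lay below all controls and acid replicate 1 lay among them (log2 fold change -0.61, SE 0.34, edgeR adjusted p = 0.549). The third gene, C4H-like Glyma.14G205200, stood at 126, 5.98 and 155 CPM in the controls and at 239, 181 and 191 CPM in acid-treated roots. All acid-treated libraries lay above the controls, and control replicate 2, with 56 counts, was far below the other controls (log2 fold change 1.09, SE 0.84, edgeR adjusted p = 0.678). As a share of the summed FPKM of the 3 genes, Glyma.20G114200 made up between 0.194% and 0.666% in the controls and between 8.39% and 11.2% in acid-treated roots. The share of Glyma.02G236500 was between 80.7% and 98.5% in the controls and between 58.1% and 63.7% in acid-treated roots. The summed C4H level overlapped between the groups, at 388, 394 and 550 FPKM in controls and 535, 349 and 330.5 FPKM in acid-treated roots.

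Genes of 4CL itself, which makes the CoA ester used by both branches, gave no call. All 3 tested 4CL genes were below 0 on the log2 fold change scale, between -0.50 and -0.30, and the most abundant of them, 4-coumarate--CoA ligase 1 Glyma.13G372000, stood at 33.8, 122 and 96.8 CPM in controls and at 82.4, 47.7 and 74.8 CPM in acid-treated roots. These groups overlapped, and control replicate 1 was the lowest library. The 4CL-like proteins belong to the same acyl-activating enzyme superfamily, and not all of them use coumarate. Of 9 tested, 6 were below 0 and the median was -0.35, which became -0.0032 without control replicate 3 and between -0.19 and -0.15 without control replicate 2, acid replicate 2 or acid replicate 3. Glyma.06G171900 stood at 31.4, 36.8 and 47.4 CPM in controls and at 25.2, 24.5 and 23.5 CPM in acid-treated roots. Its groups did not overlap and the acid-treated libraries lay close together (log2 fold change -0.66, SE 0.20, edgeR adjusted p = 0.231). The most abundant 4CL-like gene, Glyma.14G223200, had a log2 fold change of 0.12 (SE 0.25).

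In the monolignol branch, 44 of 49 genes were tested, and none was a DEG with edgeR. Shikimate O-hydroxycinnamoyltransferase (HCT), which moves the coumaroyl group onto shikimate, was represented by 4 tested genes with a median log2 fold change of -0.23. This median lay between -0.55 (without acid replicate 1) and -0.066 (without acid replicate 3) when a library was left out. The most abundant, Glyma.08G220200, carried 73.7% of the level of these HCT genes in FPKM on average. It stood at 52.4, 105 and 85.1 CPM in controls and at 85.2, 59.3 and 65.1 CPM in acid-treated roots, and the groups overlapped.

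Caffeoylshikimate esterase (CSE), which frees caffeic acid from its shikimate ester, had 10 of 11 tested genes below 0, with a median of -0.26 that ranged from -0.46 (without control replicate 1) to -0.14 (without control replicate 3) when a library was left out. The names of this class come from sequence matches alone. CSE-like Glyma.10G211200 stood at 47.3, 21.9 and 46.3 CPM in controls and at 16.9, 14.9 and 11.5 CPM in acid-treated roots. All acid-treated libraries lay below the controls, and control replicate 2 was the lowest control. It was called by DESeq2 (adjusted p = 0.00685) and not by edgeR (log2 fold change -1.41, SE 0.32, adjusted p = 0.111), except without control replicate 2, where edgeR called it with a log2 fold change of -1.69. In the other direction, CSE-like Glyma.01G080600 stood at 11.6, 10.8 and 11.9 CPM in controls and at 21.8, 16.5 and 17.2 CPM in acid-treated roots, with no overlap (log2 fold change 0.70, SE 0.20, edgeR adjusted p = 0.206). The most abundant gene, annotated as CSE itself, was Glyma.13G101400 with a log2 fold change of -0.06 (SE 0.31).

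Caffeoyl-CoA O-methyltransferase (CCoAOMT) makes feruloyl-CoA on the way to guaiacyl lignin, and 6 of its 7 tested genes were above 0, with a median log2 fold change of 0.38. The median was 0.14 without acid replicate 1, 0.18 without control replicate 1 and 0.83 without control replicate 3. Glyma.08G030500 was at a very low level, with 7, 13 and 9 counts in controls and 36, 62 and 43 counts in acid-treated roots. All acid-treated libraries were above the controls, and none of the controls had more than 13 counts. DESeq2 called it (adjusted p = 0.00081) and edgeR left it just short of the limit (log2 fold change 2.31, SE 0.40, adjusted p = 0.055), while edgeR called it without control replicate 2, at 2.59. The abundant CCoAOMT gene Glyma.07G214700, 49.5% of the class level in FPKM on average, stood at 101, 230 and 154 CPM in controls and at 224, 171 and 186 CPM in acid-treated roots. Control replicate 2 was the highest of all libraries and control replicate 1 the lowest, so that the groups overlapped (log2 fold change 0.26, SE 0.32).

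Cinnamoyl-CoA reductase (CCR) and cinnamyl alcohol dehydrogenase (CAD) reduce the CoA esters to monolignols. Among 11 tested CCR genes the median log2 fold change was 0.09, and it turned to -0.17 without acid replicate 1 and to -0.038 without control replicate 1. The most abundant, CCR 1 Glyma.11G164700, stood at 34.1, 106 and 92.0 CPM in controls and at 32.8, 28.8 and 28.8 CPM in acid-treated roots. The acid-treated libraries lay close together and below the controls, but control replicate 1 was barely above them. DESeq2 called this gene (adjusted p = 0.0299) and edgeR did not (log2 fold change -1.36, SE 0.38, adjusted p = 0.188), while without control replicate 1 edgeR called it at -1.72. All 4 CAD genes were tested and lay between -0.29 and -0.10 on the log2 fold change scale, none with an unadjusted p under 0.05 in edgeR. The most abundant, Glyma.20G128600, had a log2 fold change of -0.17 (SE 0.25).

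**Figure D2:**
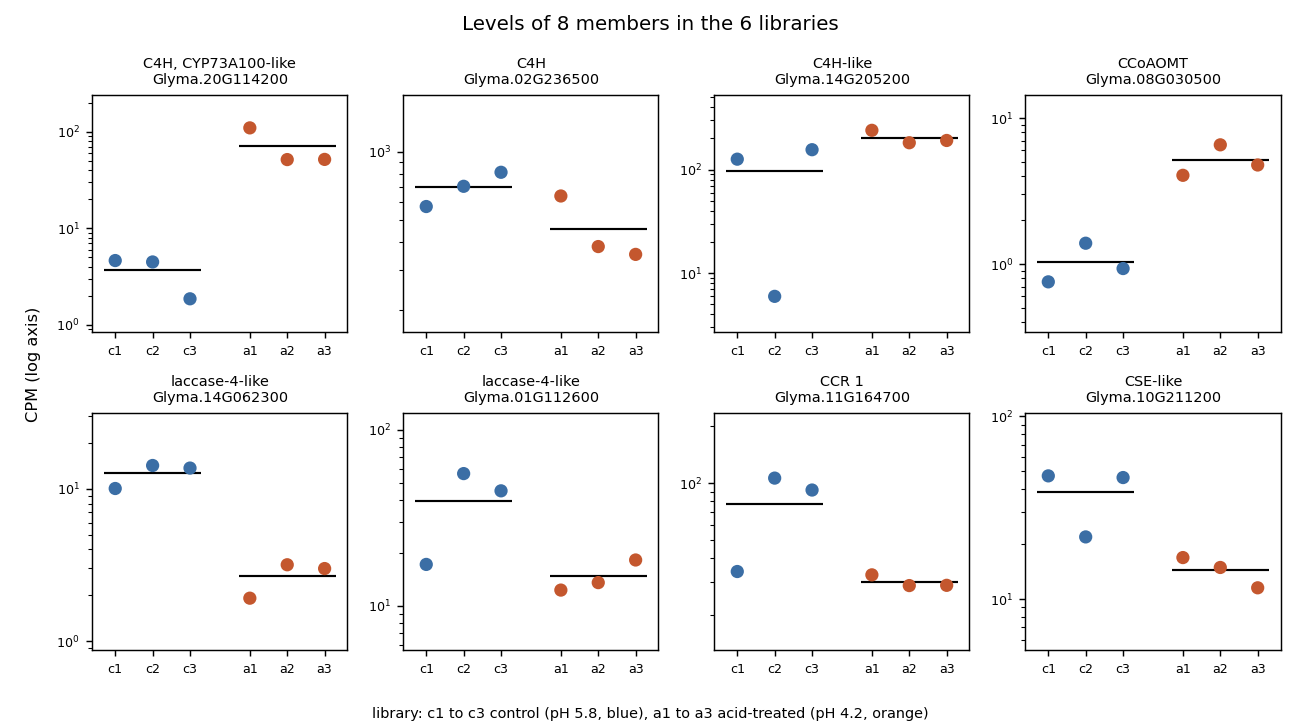
Points give CPM on a log axis in the 6 libraries for 8 members, blue for controls and orange for acid-treated roots, and lines mark the mean of each group. The C4H gene Glyma.20G114200 and the laccase-4-like gene Glyma.14G062300 are separated by wide gaps, whereas in Glyma.01G112600 and Glyma.11G164700 control replicate 1 sits near the acid-treated libraries.

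Laccases, the largest class, also had the most genes lower at pH 4.2, a count that depends on class size. As a share of tested genes, more were below 0 in CSE (10 of 11), CAD (4 of 4), 4CL (3 of 3) and HCT (3 of 4). Of 28 tested laccases, 20 were below 0, with a median of -0.47, and 8 had an unadjusted edgeR p under 0.05, all of them lower. Over all 33490 genes tested, 16839 were below 0, and 7.61% were lower and 4.21% higher with an unadjusted edgeR p under 0.05. Both the laccase-4 and the laccase-17 types, whose Arabidopsis counterparts polymerise lignin in vascular tissue, had most genes below 0. In the laccase-17 type all 8 tested genes were below 0, with a median of -0.96, and 4 of them had an unadjusted p under 0.05. In the laccase-4 type 6 of 7 tested genes were below 0, with a median of -0.78, and 3 had an unadjusted p under 0.05. Apart from the genes given below, the laccases with an unadjusted p under 0.05 had log2 fold changes between -1.51 and -0.81.

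Laccase-4-like Glyma.14G062300 was the down-regulated DEG. It stood at 10.04, 14.2 and 13.7 CPM in controls and at 1.91, 3.17 and 2.99 CPM in acid-treated roots. The groups were widely separated, and here control replicate 1 stayed with the other controls. The mean was 12.6 ± 2.27 CPM (SD, n = 3) in controls and 2.69 ± 0.681 CPM (SD, n = 3) in acid-treated roots, 4.67-fold lower at pH 4.2 in the edgeR fit (log2 fold change -2.22, SE 0.30, edgeR adjusted p = 0.0228; DESeq2 adjusted p = 1.57e-06). The log2 fold change stayed between -2.36 and -2.03 without each library in turn. The edgeR adjusted p exceeded 0.05 without acid replicate 1 (0.0943), without acid replicate 2 (0.133), without acid replicate 3 (0.069) and without control replicate 3 (0.0688). It is a minor gene of its type, with a mean of 3.78 FPKM over all libraries.

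The more abundant laccase-4-like gene Glyma.01G112600, with a mean of 12.1 FPKM, stood at 17.2, 56.3 and 45.0 CPM in controls and at 12.3, 13.5 and 18.2 CPM in acid-treated roots. Control replicate 1 lay within the range of the acid-treated libraries and the other controls far above it. DESeq2 called the gene (adjusted p = 0.036) and edgeR did not (log2 fold change -1.43, SE 0.40, adjusted p = 0.192), but without control replicate 1 edgeR called it at -1.79. The same order of libraries appeared in sums over the types. The 8 laccase-4 genes together reached 31.6, 82.0 and 69.0 FPKM in controls and 25.2, 28.7 and 38.8 FPKM in acid-treated roots. The 9 laccase-17 genes reached 13.7, 34.7 and 30.5 FPKM in controls and 12.9, 12.2 and 14.3 FPKM in acid-treated roots. In both sums control replicate 1 lay inside the range of the acid-treated libraries and control replicates 2 and 3 lay above all of them.

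Over the members, the acid-treated libraries were compared with control replicates 2 and 3 alone, whatever the place of control replicate 1. This comparison was chosen with the place of control replicate 1 in these data known, and only the lower direction was counted. Its counts describe the libraries and are no test of pH. All 3 acid-treated libraries lay below control replicates 2 and 3 in 39 of 113 tested members (34.5%, all genes 16.1%) and in 15 of 28 laccases (53.6%). These counts include the 12 members (10.6%, all genes 9.23%), 2 of them laccases, whose acid-treated libraries lay below all controls. Control replicate 1 was the lowest of the 6 libraries in 43 of 113 members (38.1%, all genes 18.3%). A member can be in both counts, so they are not separate sets. Without control replicate 1 the median log2 fold change of the tested laccases was -0.74 and without control replicate 2 it was -0.04. For the laccase-17 type these medians were -1.18 and -0.77, and for the laccase-4 type -1.10 and -0.47.

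Among the other laccase types, the single laccase-12 gene had a log2 fold change of -0.86 with an unadjusted edgeR p of 0.0282, and both laccase-5 genes were below 0, at -0.68 and -0.38. Both tested laccase-3 genes were above 0, at 0.52 and 0.61. Of 4 tested laccase-7 genes, 3 were above 0, with a median of 0.26 that was -0.62 without acid replicate 1. The difference between types was not tested. The most abundant laccase of the roots in FPKM, laccase-7 Glyma.U027400, stood at 41.3, 16.2 and 86.5 CPM in controls and at 250, 42.4 and 9.98 CPM in acid-treated roots. Acid-treated libraries were both the highest and the lowest of the 6, and the log2 fold change of 1.07 (SE 1.003, edgeR adjusted p = 0.734) became -0.87 without acid replicate 1. The neighbouring identifier Glyma.U027300, laccase-7-like, had 3, 1 and 4 counts in controls and 52, 26 and 8 counts in acid-treated roots, and DESeq2 called it (adjusted p = 0.00812) while edgeR's filter left it untested.

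**Figure D3:**
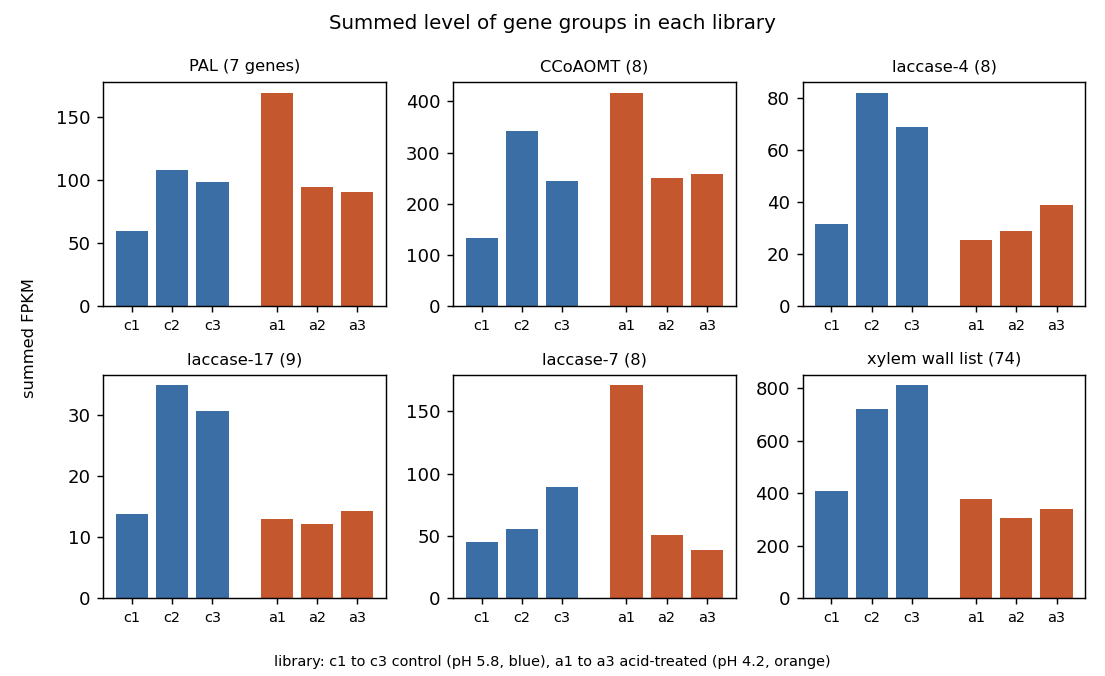
Bars give the summed FPKM of 5 groups of members and of 74 xylem secondary wall genes in each library, blue for controls and orange for acid-treated roots. In the laccase-4, laccase-17 and xylem panels control replicates 2 and 3 are the tallest bars and control replicate 1 is near the acid-treated libraries, while in the PAL, CCoAOMT and laccase-7 panels acid replicate 1 is the tallest.

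Dirigent proteins were divided. Of 19 tested, 11 were above 0 and 8 below, with a median of 0.39, and 4 in each direction had an unadjusted edgeR p under 0.05. Over all genes tested, 4.21% were higher and 7.61% lower at that limit. The most abundant, dirigent protein 22-like Glyma.03G044500, carried 47.0% of the class level in FPKM on average and stood at 195, 340 and 268 CPM in controls and at 224, 197 and 228 CPM in acid-treated roots, with the groups overlapping. Dirigent 11-like Glyma.07G239900 stood at 8.64, 3.53 and 7.77 CPM in controls and at 0.788, 1.90 and 1.33 CPM in acid-treated roots. No acid-treated library reached the lowest control, which was replicate 2. DESeq2 called it (adjusted p = 0.00281) and edgeR did not (log2 fold change -2.29, SE 0.47, adjusted p = 0.0913), although edgeR called it without control replicate 2, at -2.59. At a lower level, dirigent 22-like Glyma.19G150900 stood at 0.432, 1.28 and 0.725 CPM in controls and at 1.80, 1.80 and 1.89 CPM in acid-treated roots, with a log2 fold change of 1.15 (SE 0.50, edgeR adjusted p = 0.409).

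A few dirigent genes had almost no counts outside acid replicates 1 and 2. Dirigent 1-like Glyma.19G151100 had 2, 4 and 4 counts in controls and 803, 94 and 2 counts in acid-treated roots. Dirigent 22-like Glyma.03G044900 had 0, 1 and 2 counts in controls and 457, 41 and 4 counts in acid-treated roots. Acid replicate 3 was at the level of the controls or close to it in both genes, and acid replicate 1 held most of the counts. DESeq2 called them (adjusted p = 0.00873 and 0.00869), and edgeR's filter, which asks for enough counts in 3 libraries, left both untested. Dirigent 1-like Glyma.19G151200, named after its values were seen, had 16, 9 and 7 counts in controls and 368, 48 and 13 counts in acid-treated roots, with the same order of acid-treated libraries (log2 fold change 3.80, edgeR adjusted p = 0.218). Acid replicate 1 was the highest library for 23.9% of the 113 tested members, beside 13.4% of all genes tested. The part of this library in the results was not tested beyond leaving it out. After that, 4 rather than 9 members were higher with an unadjusted edgeR p under 0.05 (all genes 3.49% rather than 4.21%).

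**Figure D4:**
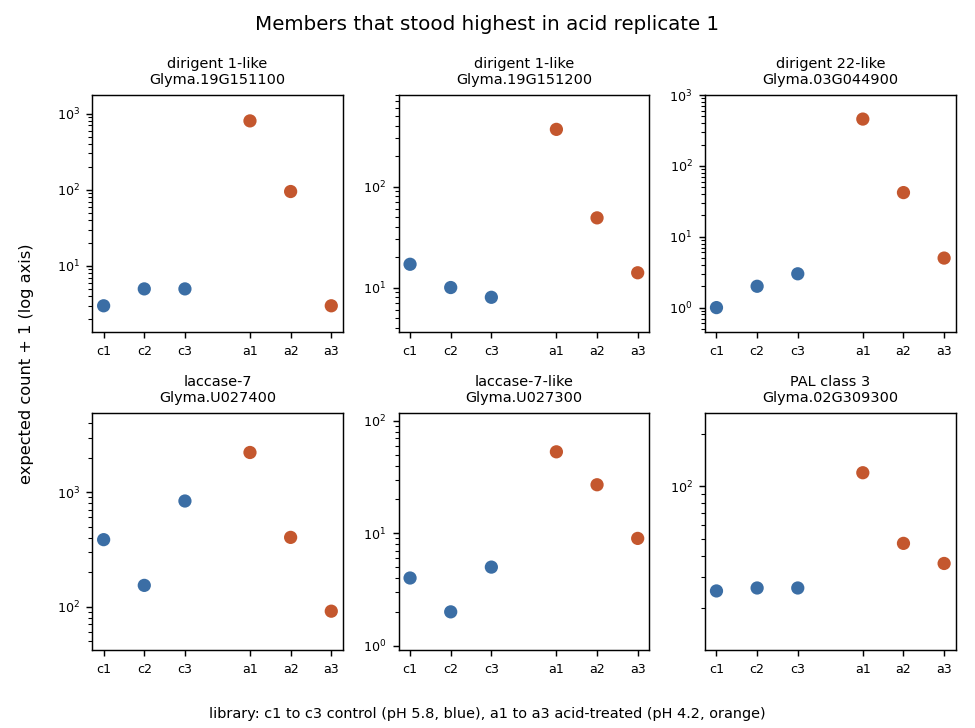
Points give expected counts plus 1 on a log axis for 6 members chosen because acid replicate 1 was their highest library, blue for controls and orange for acid-treated roots. In every panel acid replicate 1 is the highest point, as the choice of genes requires, and in 3 of the panels acid replicate 3 lies among or below the controls.

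Genes that act beside the members were taken from word lists for the rest of the pathway. Of 29 such genes, 21 were tested, with a median log2 fold change of 0.02 that ranged from -0.18 (without acid replicate 1) to 0.20 (without control replicate 2). None was called by edgeR. With DESeq2, 3 were called lower (all genes 1.55%) and none higher (all genes 1.22%). With an unadjusted edgeR p under 0.05, 4 were lower (all genes 7.61%) and none higher (all genes 4.21%). The 8 arogenate dehydratase genes, which make phenylalanine, had a median of 0.17. The 2 tested genes of the CYP98A family, the hydroxylases between HCT and CSE, lay at -0.17 and 0.19. Glyma.18G104100, annotated as a shikimate/quinate hydroxycinnamoyltransferase and so named for the same step as HCT, stood at 19.001, 16.99 and 31.0 CPM in controls and at 10.02, 6.24 and 5.10 CPM in acid-treated roots. Its groups did not overlap, and DESeq2 called it (adjusted p = 0.00259) while edgeR did not (log2 fold change -1.65, SE 0.34, adjusted p = 0.0907). Both tested genes of the CYP84A family, the ferulate 5-hydroxylases that open the route to syringyl lignin, were below 0, at -0.78 and -0.76. Glyma.11G064400, a UDP-glycosyltransferase 72E1-like gene of a family that glucosylates monolignols in Arabidopsis, stood at 16.0, 2.35 and 22.1 CPM in controls and at 1.01, 0.634 and 0.444 CPM in acid-treated roots. The groups did not overlap and control replicate 2 was the lowest control (log2 fold change -4.25, edgeR adjusted p = 0.077; DESeq2 adjusted p = 2.45e-06). A second gene of this annotation, Glyma.01G177900, stood at 71.4, 39.6 and 93.2 CPM in controls and at 41.0, 17.1 and 13.9 CPM in acid-treated roots, where acid replicate 1 lay just above control replicate 2 (log2 fold change -1.51, edgeR adjusted p = 0.222; DESeq2 adjusted p = 0.0427).

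Markers of xylem secondary walls, where most root lignin lies, had values lower at pH 4.2 alongside the laccases. The list held 74 genes, among them the wall cellulose synthases CesA4, CesA7 and CesA8 and the fasciclin-like arabinogalactan proteins 11 and 12. Its largest group, 23 genes annotated as irregular xylem (IRX), was less lowered. The 21 tested IRX genes had a median log2 fold change of -0.41, and 4 of them were above 0. The medians of the fasciclin-like proteins 11 and 12 were -1.63 and -1.40. Of 64 tested genes of the list, 60 were below 0, with a median log2 fold change of -1.09. With an unadjusted edgeR p under 0.05, 39 were lower (all genes 7.61%). Even so, none was a DEG with edgeR, and 6 were with DESeq2, all of them lower (all genes 1.55%). The summed level of the list was 409, 718 and 809 FPKM in controls and 379, 307 and 339 FPKM in acid-treated roots. All acid-treated libraries lay below the controls, and control replicate 1 was closer to them than to the other controls. In 51 of the 64 genes (79.7%, all genes 16.1%) all acid-treated libraries lay below control replicates 2 and 3. This count again leaves the place of control replicate 1 open and was chosen with that place known. Below all controls, the count was 23 of the 64 genes (all genes 9.23%). The list's median was -1.38 without control replicate 1, -0.98 without control replicate 2 and -1.19 without acid replicate 1. The CesA4 genes alone summed to 16.0, 35.9 and 42.2 FPKM in controls and to 15.9, 13.7 and 13.5 FPKM in acid-treated roots, with control replicate 1 just above the acid-treated libraries. The part of xylem content in the levels of the laccases was not tested. The endodermis list had a median of 0.42 over 15 tested genes, which was 0.092 without control replicate 1 and 0.82 without control replicate 2, and no gene of it had an unadjusted edgeR p under 0.05.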

How the data were processed

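The 6 libraries were sequenced on the BGISEQ-500 platform. The authors used HISAT and the build Williams82.a2.v1 for genome mapping, StringTie for new transcripts, and Bowtie2 with RSEM for quantification (versions not given in the sources used here). RSEM's expected counts were deposited without normalization. Per library 85.7% to 87.2% of them were whole and the remainder were split between similar genes, which concerned 22 members. The deposited FPKM values come from the same counts and served for levels per gene length. A gene absent from a library's file counted as 0 there.

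Groups follow the pH label. Rounded counts of all genes entered edgeR 4.0.16 in R 4.3.3 (filterByExpr, TMM, robust glmQLFit, glmQLFTest), with p-values adjusted after Benjamini and Hochberg, and DEGs needed an adjusted p under 0.05 plus a change of 2-fold or more. The script was tested on simulated data. Alternatives were DESeq2 1.42.0, RLE size factors, no filter, a minimum mean count of 50, limma-trend (version 3.58.1) on FPKM values after adding 0.1 or 1 and taking log2, a replicate block, and each library left out. The p-values set the difference between the groups against the spread between these libraries. Nothing in the labels says whether replicates came from separate cultures. If those of a pH shared a culture, effects of pH and of culture could not be told apart.

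Named with values are the C4H gene, all members called by edgeR or DESeq2, the most abundant member of each class, and, per class, the members that changed most upwards and downwards among those whose groups did not overlap. One class of members is counted in the totals and otherwise not reported here. Members, word lists and this rule were chosen with earlier results of these data known. The word for nodules matched only 2 leghemoglobin reductase genes and gave no nodule marker (median log2 fold change 0.42). Root hair and dividing cell lists had medians of 0.25 and 0.33, and the leaf list 0.15. The annotation table at hand holds no identifiers of this build, so no coordinates or sequences are given.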

Additional observations from a re-analysis of the deposited data

How the results depend on the processing

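The number of up-regulated members was 1 (all genes 0.227%). It became 5 with DESeq2 (all genes 1.22%), 2 with no filter on low counts (0.286%) and 2 with limma-trend on log2(FPKM + 1) (0.269%). When a library was left out, it was 0 without acid replicate 2 (all genes 0.00291%). The highest number was 2, without acid replicate 3 (all genes 0.148%) or control replicate 2 (1.02%). The number of down-regulated members was 1 (all genes 0.331%) and became 5 with DESeq2 (1.55%) and 2 with no filter (0.378%). It was 0 when any 1 acid replicate was left out (all genes 0.0174% to 0.0927%) or control replicate 3 (0.117%). It was 3 without control replicate 1 (all genes 0.19%) or control replicate 2 (2.24%). The C4H gene Glyma.20G114200 was called under every alternative except without acid replicate 2, and laccase Glyma.14G062300 under every alternative that kept all libraries except the replicate block. Members higher with an unadjusted edgeR p under 0.05 numbered 9 (all genes 4.21%). This number ranged from 4 (without acid replicate 1, all genes 3.49%) to 15 (without control replicate 2, all genes 7.5%). Those lower numbered 20 (all genes 7.61%). Their number was 10 without acid replicate 2 (all genes 4.46%) or control replicate 3 (4.4%), and 26 without control replicate 1 (7.38%). The cause of these shifts was not tested.

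The replicate numbers in the titles did not pair the samples, since the deviations of same-numbered libraries correlated at -0.135, -0.054 and -0.373. With the replicate block, 1 member was up-regulated (all genes 0.0567%) and 0 were down-regulated (all genes 0.125%). In this edgeR fit C4H kept an adjusted p of 0.016 and the laccase had 0.0588.

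When 1 library was left out, the log2 fold change of some uncalled genes turned sign. Glyma.U027400 ranged from -0.87 (without acid replicate 1) to 1.82, Glyma.14G223200 from -0.055 (without acid replicate 1) to 0.25, Glyma.13G101400 from -0.30 to 0.17 (without control replicate 2), Glyma.08G220200 from -0.44 to 0.027 (without control replicate 2), Glyma.20G128600 from -0.36 to 0.0033 (without control replicate 2) and Glyma.13G372000 from -0.68 to 0.067 (without control replicate 2). With 3 libraries per group and controls that differ among themselves, a member that was not called is not shown to be unaffected by pH.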
